A study of Mus musculus with 20 samples.

Results

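The alpha and beta defensins were the 23 genes, of 18193 genes with a single-symbol probe set, whose symbol begins with Defa or Defb followed by a digit or a hyphen. They comprised 3 alpha defensins (Defa31, Defa3 and Defa39) and 20 beta defensins. Where a gene had several probe sets the brightest on average was used, and Defb1 alone had another. RefSeq lists 70 protein-coding genes of these families in the mouse (28 alpha and 42 beta), so most were not read by a single-symbol probe set, and Defb14 was not analysed here. Affymetrix arrays had measured RNA of medullary thymic epithelial cells from individual thymi of male mice aged 3 to 4.5 weeks, sorted as CD45 negative, G8.8 positive, Ly51 intermediate and MHC class II high. The groups were NOD Aire KO (n = 3) and NOD Aire WT (n = 3), BALB Aire KO (n = 4) and BALB Aire WT (n = 4), and B6 Aire KO (n = 3) and B6 Aire WT (n = 3). The comparisons ask how the defensins differ with Aire genotype in each background and between backgrounds. No details of the Aire allele are given in the sources used here.

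Defensins are small cationic peptides held together by disulfide bonds, which damage microbial membranes and, in some cases, attract leukocytes. Mouse alpha defensins are made mainly by Paneth cells of the small intestine as precursors that the protease Mmp7 cuts, whereas beta defensins are made by surface epithelia and, for many members, by the epididymis and testis. The genes lie in tandem clusters of near-identical copies, and mouse neutrophils, unlike human ones, lack defensins. Aire is the regulator that lets medullary thymic epithelium transcribe genes of peripheral organs.

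The median intensity of the arrays ran from 86.3 to 90.9 units, and the p-values rest on the spread between mice, pooled over the 6 groups with 14 residual degrees of freedom. Levels below are log2 intensities of 1 probe set and are never compared between probe sets. They cannot tell fewer cells of a type from less RNA per cell. Across all probe sets the lowest 5% of log2 values lay below 3.77 and the median was 6.48, and no detection calls were used, so a low value is not shown to be absence. The Aire probe set was higher in KO mice by 0.74 ± 0.14 (SE; adjusted p = 0.00104), which checks nothing about the genotype, so KO means labelled KO. Mature medullary epithelial markers, a list that includes Aire itself, averaged between 10.73 and 11.42 in every mouse. Of these 14, 3 were higher (Aire, Cd80 and H2-Ab1) and 0 lower in KO mice. The log2 ratio of 3' over 5' Gapdh control signal was 1.68 to 1.90 in B6 KO mice 2 and 3 and B6 WT mouse 2, against 2.31 to 3.76 in the other 3 B6 mice and 2.15 to 3.04 in the 14 NOD and BALB mice. Calls that change without these 3 B6 arrays are given with that value.

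In KO mice 11 of the 23 defensins were lower and 1 was higher, averaged over the 3 backgrounds. Rates over all 18193 genes were 16.6% lower, 9.70% higher and 26.3% in either direction at the same threshold, a limma adjusted p of 0.05. An unadjusted p under it was found for 13 members, and the rate of that over all genes was not computed. Their median difference was -0.18 on the log2 scale, against 0.01 over all genes. The lower genes were Defa31, Defa39, Defb1, Defb3, Defb4, Defb5, Defb6, Defb8, Defb19, Defb41 and Defb45, and the higher gene was Defb42. Defa39, Defb3, Defb4, Defb5, Defb6 and Defb19 had every KO mouse below every WT mouse of its own background, an arrangement that 5.56% of all genes showed. No member showed the opposite arrangement in all backgrounds (1.62% of all genes). The fit without the 3 B6 arrays holds 1 B6 KO mouse, so its count of members is not given here.

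Markers of other cells were read for the same mice. Of 11 neutrophil markers, 4 of which (S100a8, S100a9, Camp and Ltf) also stand in the list of epithelial antimicrobial proteins, 7 were lower in KO mice, with a median of -1.76. Their mean level was 6.73 to 6.90 in NOD KO mice against 7.83 to 8.13 in NOD WT mice, 6.52 to 6.69 in BALB KO against 7.54 to 8.02 in BALB WT mice, and 6.49 to 6.68 in B6 KO against 7.88 to 8.18 in B6 WT mice. Mpo, Ngp, Ctsg, Ltf, Camp, S100a8 and S100a9 were the lower ones, the last 4 of which epithelia can also make, whereas the neutrophil receptors Csf3r and Cxcr2 and the granule proteases Elane and Prtn3 did not pass (adjusted p = 0.893, 0.131, 0.430 and 0.223). None of the 11 was listed at 0, and the part of these markers in the defensin falls was not tested. Dendritic cell and macrophage markers were lower for 2 and higher for 2 of 13, of which Lyz2 is also in the Paneth cell list (mean levels 7.66 to 8.93 in NOD KO and 7.83 to 9.45 in NOD WT mice, 7.55 to 8.40 in BALB KO and 7.78 to 8.36 in BALB WT mice, 7.63 to 8.08 in B6 KO and 8.12 to 8.37 in B6 WT mice). Thymocyte markers were lower for 2 of 10 and higher for 0. Over all genes 16.6% were lower and 9.70% higher, the rates beside which these marker counts stand.

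**Figure D1:**
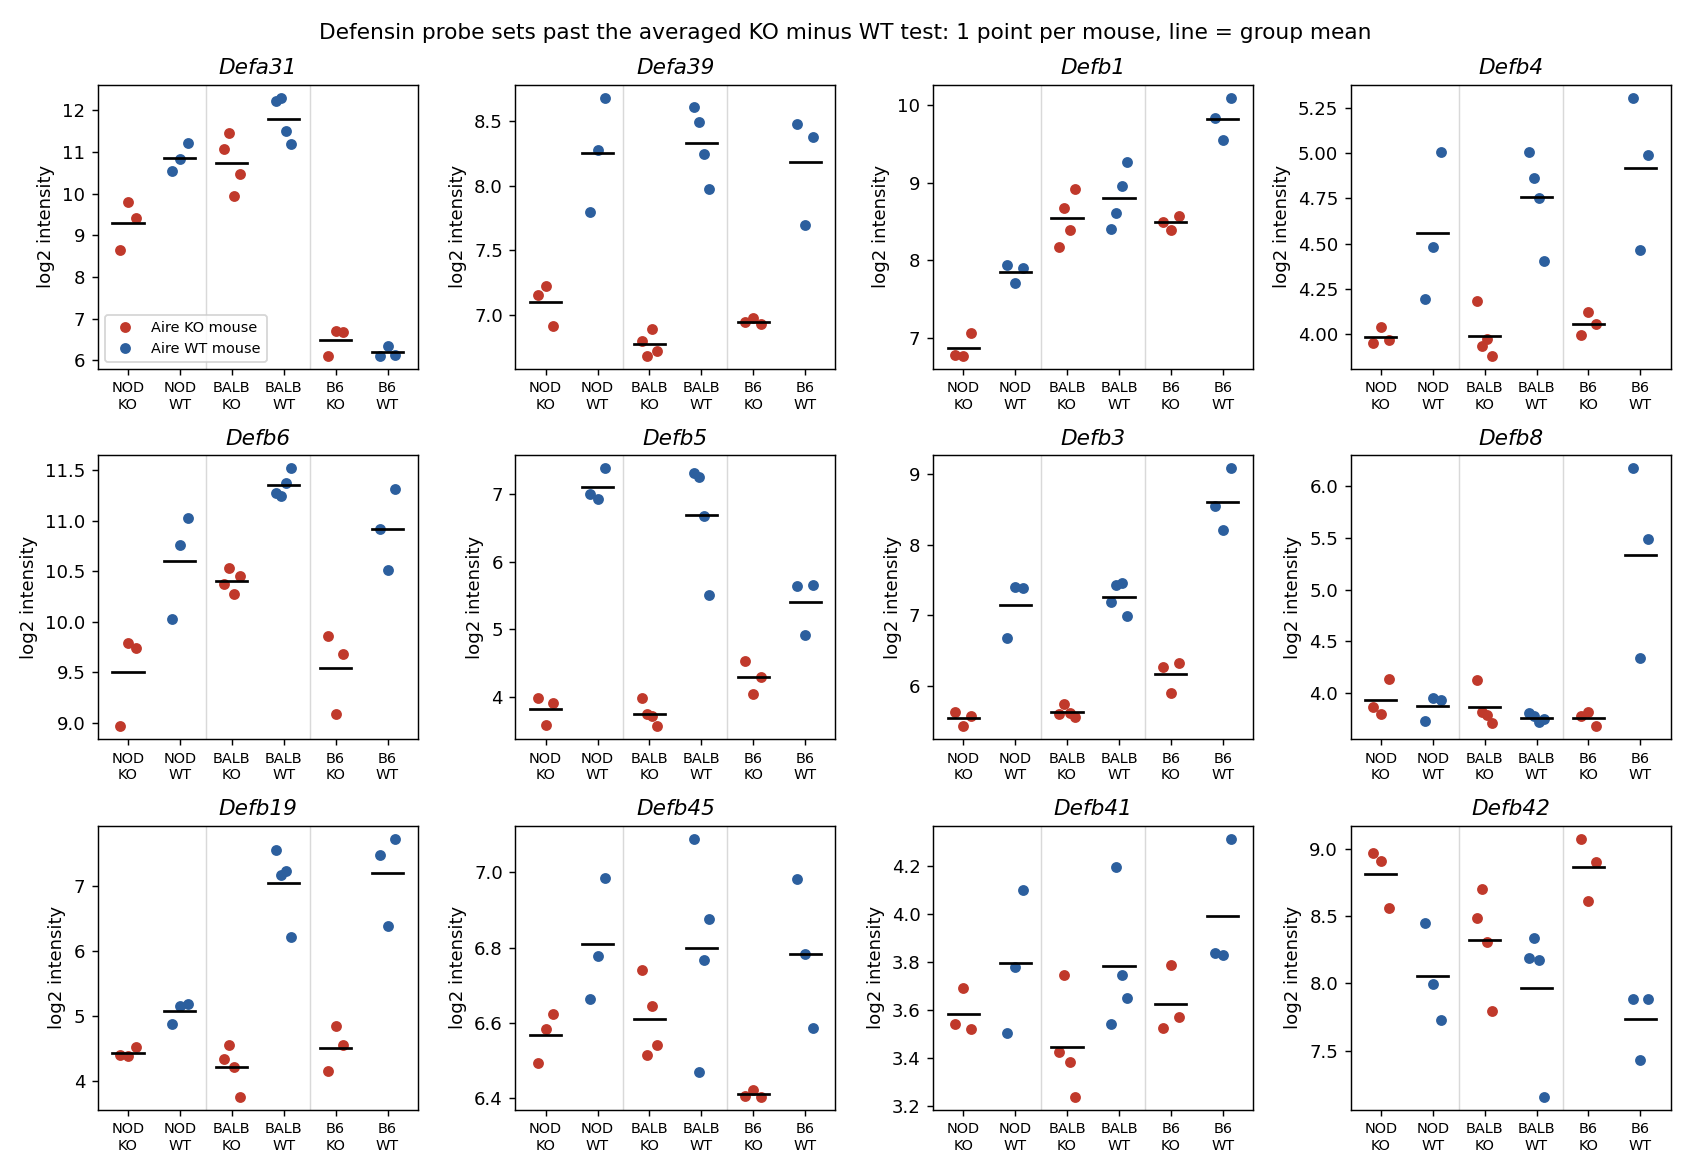
Log2 intensity (vertical axis) of the 12 defensins past the averaged KO minus WT test, 1 point per mouse and a line at each group mean, with KO in red left of WT in blue for NOD, BALB and B6. Defb42 is the only panel with KO means above WT means in all 3 backgrounds, and the Defa31 values of both B6 groups lie between 6.11 and 6.72, below all NOD and BALB mice.

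Defa31 encodes a Paneth cell alpha defensin (cryptdin). Its log2 intensity was 8.64, 9.79 and 9.42 in NOD KO mice, against 10.53, 10.82 and 11.21 in NOD WT mice. BALB KO mice had 11.06, 11.45, 9.93 and 10.48, against 12.22, 12.29, 11.49 and 11.18 in BALB WT mice. B6 KO mice had 6.11, 6.72 and 6.67, against 6.11, 6.34 and 6.14 in B6 WT mice. Every NOD and BALB mouse of either genotype therefore lay above every B6 mouse, while KO and WT separated fully in NOD and overlapped in BALB and B6. Among WT mice the level exceeded that of B6 by 4.66 ± 0.37 in NOD (SE; 25.3-fold, adjusted p = 1.90e-07) and by 5.60 ± 0.34 in BALB (48.5-fold, adjusted p = 5.46e-09). Among KO mice the same differences were 2.78 ± 0.37 for NOD (6.88-fold, adjusted p = 6.66e-05) and 4.23 ± 0.34 for BALB (18.8-fold, adjusted p = 2.05e-07). NOD lay below BALB by more than the spread in KO mice (-1.45 ± 0.34, adjusted p = 0.0111, but 0.0760 without NOD KO mouse 1) and not in WT mice (-0.94 ± 0.34, adjusted p = 0.127). The WT difference for Defa31 passed with the run of sample codes as a random block (-0.95, adjusted p = 0.0400). That fit holds 19 arrays, because B6 WT mouse 1 has no sample code and is left out of it.

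The KO effect on Defa31 was -1.57 ± 0.37 in NOD (SE; 2.97-fold lower, adjusted p = 0.0159). Leaving out NOD WT mouse 2, NOD WT mouse 3 or NOD KO mouse 1 took the adjusted p for Defa31 to 0.0571, 0.0941 and 0.111. In BALB the effect was -1.07 ± 0.32 (adjusted p = 0.0511), and with same-numbered KO and WT mice as a replicate block it passed (adjusted p = 0.000298, and 0.00161 with NOD and BALB mice alone paired). B6 gave 0.30 ± 0.37 (adjusted p = 0.684), so the averaged difference of -0.78 came from the NOD and BALB values. The test of a difference between backgrounds in the KO effect on Defa31 had an adjusted p of 0.345. That p was 0.00263 with the replicate block, 0.0171 with NOD and BALB mice alone paired and 0.0394 with the run of sample codes as a random block.

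The Defa31 probe set is of a type (x_at) whose probes can also match other sequences, and alpha defensin genes are close copies, so the signal cannot be assigned to Defa31 alone. The 300-base RefSeq promoter window of Defa31 (250 bases before and 50 after the gene start; GRCm38.p6, chr8:21191323-21191622, plus strand) is shown because its letters illustrate that likeness. Capitals mark TATAAA, which on either strand occurs in 13.6% of 32851 RefSeq windows of this length and here starts 33 bases before the gene start.
Defa31: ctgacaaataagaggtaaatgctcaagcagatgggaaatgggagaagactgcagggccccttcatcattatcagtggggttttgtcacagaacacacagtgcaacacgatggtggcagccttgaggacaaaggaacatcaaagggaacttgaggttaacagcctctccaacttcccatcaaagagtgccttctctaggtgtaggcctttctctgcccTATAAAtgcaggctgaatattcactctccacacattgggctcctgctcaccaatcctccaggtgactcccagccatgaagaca
The window of Defa23 is identical to it (100%), whereas the windows of the other 14 alpha defensins in the table were 61.6 to 81.9% identical. Whether the array probes tell Defa31 from Defa23 was not tested. Nor was it tested whether the probes match the sequences of all backgrounds alike, here or for the other strain differences.

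Defa39, another alpha defensin, showed a different pattern across backgrounds. Its probe set is also of the x_at type, so the signal cannot be assigned to Defa39 alone. Defa39 had 7.15, 7.22 and 6.91 in NOD KO mice, against 7.80, 8.28 and 8.68 in NOD WT mice. In BALB KO mice it had 6.79, 6.68, 6.89 and 6.71, against 8.61, 8.49, 8.25 and 7.97 in BALB WT mice. The B6 KO mice had 6.94, 6.97 and 6.92, against 8.48, 7.69 and 8.38 in B6 WT mice. Each of the 10 KO mice read lower than every WT mouse of its background, with group means of WT mice close together (8.18 to 8.33). KO minus WT was -1.16 ± 0.21 in NOD, -1.56 ± 0.18 in BALB and -1.24 ± 0.21 in B6 on the log2 scale (SE; adjusted p = 0.00245, 1.97e-05 and 0.000775). No strain difference in Defa39 passed in either genotype. Defa3, the remaining alpha defensin, lay between 4.34 and 4.79 in all 20 mice and passed no test.

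Probe sets shared by 2 alpha defensins were set beside the members without being counted. The probe set of Defa22 and Defa21 had 6.97, 4.25 and 6.23 in B6 WT mice and stayed between 3.28 and 3.86 in all other 17 mice, B6 KO included. KO minus WT was -0.01 ± 0.41 in NOD, 0.06 ± 0.36 in BALB and -2.29 ± 0.41 in B6 (adjusted p = 0.00113 in B6). The B6 KO values lie within the lowest 5% of all values, so no fold is given. The B6 difference was -3.07 without B6 WT mouse 2 and -1.71 without B6 WT mouse 1 (adjusted p = 2.71e-08 and 0.00504). With the run of sample codes as a random block, which also leaves out B6 WT mouse 1, it was -1.67 (adjusted p = 0.00458). In a fit of the B6 mice alone the difference did not pass (adjusted p = 0.117). The lowest of the B6 WT values belongs to mouse 2, 1 of the 3 arrays with a low Gapdh ratio, and the part of that in the result was not tested. The probe set of Defa30 and Defa24 was lower in KO mice on average (-0.80 ± 0.24, adjusted p = 0.0264), while no background passed alone. Among these alpha defensin signals 3 had unlike layouts over the backgrounds. Defa31 was lowest in B6, Defa22 and Defa21 were high in B6 WT mice only, and Defa39 was similar in WT mice of all 3. Defa30 and Defa24, also read by an x_at probe set, averaged 5.83 in NOD, 5.97 in BALB and 6.36 in B6 WT mice.

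A group of beta defensins, several known from surface epithelia, lies at the proximal end of the defensin region of chromosome 8, in the order Defb4, Defb6, Defb5, Defb3, Defb8 and Defb7 among those measured. Of these 6 genes 5 were lower in KO mice, and the 4 from Defb4 to Defb3 had a median averaged difference of -1.52. Promoter windows of Defb6 (chr8:19225228-19225527), Defb5 (chr8:19247342-19247641) and Defb3 (chr8:19293111-19293410) are printed because these neighbours fell in all 3 backgrounds (RefSeq, GRCm38.p6, plus strand, 250 bases before and 50 after the gene start). Capitals mark the 6 runs of at least 12 letters that all 3 windows share.
Defb6: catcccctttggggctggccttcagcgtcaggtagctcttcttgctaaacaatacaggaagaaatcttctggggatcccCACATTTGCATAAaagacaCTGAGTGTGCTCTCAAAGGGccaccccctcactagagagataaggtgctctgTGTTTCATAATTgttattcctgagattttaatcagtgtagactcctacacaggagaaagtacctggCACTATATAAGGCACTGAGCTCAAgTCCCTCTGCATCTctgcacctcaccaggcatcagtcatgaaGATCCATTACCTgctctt
Defb5: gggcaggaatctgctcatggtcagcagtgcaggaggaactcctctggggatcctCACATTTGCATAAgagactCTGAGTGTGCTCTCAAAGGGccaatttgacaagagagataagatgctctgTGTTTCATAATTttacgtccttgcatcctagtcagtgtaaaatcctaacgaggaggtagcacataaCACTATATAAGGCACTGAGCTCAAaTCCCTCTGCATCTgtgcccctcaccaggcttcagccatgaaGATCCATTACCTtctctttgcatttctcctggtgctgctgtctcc
Defb3: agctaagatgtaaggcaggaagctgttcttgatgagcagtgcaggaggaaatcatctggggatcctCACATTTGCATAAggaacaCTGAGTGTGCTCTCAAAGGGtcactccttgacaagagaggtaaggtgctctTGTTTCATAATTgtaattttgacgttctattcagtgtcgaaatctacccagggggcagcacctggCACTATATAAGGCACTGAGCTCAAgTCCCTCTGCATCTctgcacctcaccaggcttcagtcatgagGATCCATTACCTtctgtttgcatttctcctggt
The windows were 69.3% identical between Defb6 and Defb5, 77.5% between Defb6 and Defb3 and 79.1% between Defb5 and Defb3. Their longest shared run, 24 letters, holds TATATAA, which was searched on both strands and occurs in 3.24% of the 32851 windows. Among the 16 members with a window in the table, TATATAA was found in Defb6, Defb5, Defb3, Defb8 and Defb7, and the last of these passed no test. A match describes letters and shows no binding.

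Defb5 had the lowest averaged difference of all 23 members. NOD KO mice had 3.99, 3.59 and 3.92, against 7.001, 6.93 and 7.38 in NOD WT mice. The BALB KO mice had 3.99, 3.76, 3.72 and 3.57, against 7.31, 7.25, 6.67 and 5.51 in BALB WT mice. In B6 the KO mice had 4.53, 4.04 and 4.30, against 5.63, 4.92 and 5.66 in the WT mice. KO and WT did not overlap in any background. KO minus WT was -3.27 ± 0.34 in NOD (SE; adjusted p = 6.42e-06), -2.93 ± 0.29 in BALB (adjusted p = 2.62e-06) and -1.11 ± 0.34 in B6 (2.16-fold lower, adjusted p = 0.0469). In NOD and BALB 4 of the 7 KO values lie within the lowest 5% of all values, so no fold is given there. The B6 call for Defb5 was lost under 19 of 30 alternatives, with adjusted p up to 0.367 without the 3 B6 arrays, and among the single mice it was kept only without B6 KO mouse 1, B6 WT mouse 2 or BALB WT mouse 1, 2 or 4. The difference between backgrounds in the Defb5 effect had an adjusted p of 0.0815. It passed for Defb5 with the replicate block (0.00295, and 0.0267 with NOD and BALB mice alone paired), with the run of sample codes as a random block (0.0426) and without BALB WT mouse 4 (0.00224).

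Defb3, an inducible epithelial beta defensin, was lower in all KO mice as well. It had 5.63, 5.43 and 5.58 in NOD KO mice, against 6.67, 7.40 and 7.38 in NOD WT mice. It had 5.60, 5.75, 5.62 and 5.56 in BALB KO mice, against 7.18, 7.43, 7.46 and 6.99 in BALB WT mice. It had 6.26, 5.90 and 6.33 in B6 KO mice, against 8.55, 8.20 and 9.08 in B6 WT mice. No KO mouse reached a WT mouse of its background, and B6 WT mice were the highest of all. The differences were -1.61 ± 0.21 in NOD (3.05-fold lower, adjusted p = 7.85e-05), -1.63 ± 0.18 in BALB (3.10-fold lower, adjusted p = 9.43e-06) and -2.45 ± 0.21 in B6 (5.46-fold lower, adjusted p = 3.76e-07). Among WT mice Defb3 was lower in both other backgrounds than in B6 (-1.46 ± 0.21 for NOD and -1.35 ± 0.20 for BALB, adjusted p = 0.000215 and 0.000281). Defb5 went the other way, higher than in B6 by 1.70 ± 0.34 in NOD and 1.28 ± 0.31 in BALB (adjusted p = 0.00388 and 0.0200). The BALB and B6 ranges of Defb5 overlapped, and that difference for Defb5 was lost without the 3 B6 arrays (adjusted p = 0.140), B6 WT mouse 2, BALB WT mouse 1 or BALB WT mouse 2 (adjusted p = 0.119, 0.0649 and 0.0585), and with the run of sample codes as a random block (adjusted p = 0.130).

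Defb6, a beta defensin known from tongue, oesophagus and muscle, lies between Defb4 and Defb5 among the measured genes. Its KO values were 8.96, 9.79 and 9.74 in NOD, against 10.02, 10.75 and 11.02 in NOD WT mice. In BALB KO mice Defb6 had 10.37, 10.53, 10.27 and 10.45, against 11.27, 11.25, 11.37 and 11.52 in BALB WT mice. B6 KO mice had 9.85, 9.09 and 9.68, against 10.92, 10.51 and 11.32 in B6 WT mice. Groups of 1 background did not overlap, although BALB KO mice lay level with some NOD WT mice. KO minus WT was -1.10 ± 0.26 in NOD (adjusted p = 0.0185), -0.95 ± 0.23 in BALB (adjusted p = 0.0144) and -1.37 ± 0.26 in B6 (adjusted p = 0.00196). For Defb6 in NOD the adjusted p was 0.0964, 0.127 and 0.130 without NOD WT mouse 2, NOD WT mouse 3 and NOD KO mouse 1, and in B6 it was 0.0778 without the 3 B6 arrays. Among KO mice Defb6 was higher in BALB than in B6 (0.86 ± 0.25, adjusted p = 0.0292) and lower in NOD than in BALB (-0.91 ± 0.25, adjusted p = 0.0259). The first of these was lost without the 3 B6 arrays (0.55, adjusted p = 0.673), without B6 KO mouse 2 or 3 (adjusted p = 0.202 and 0.0750) and without BALB KO mouse 1, 2 or 4 (0.0530, 0.0612 and 0.0597), and with the run of sample codes as a random block (0.0522). The other was lost without BALB KO mouse 2, BALB KO mouse 4 or NOD KO mouse 1 (0.0629, 0.0603 and 0.153).

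Defb4, a beta defensin of tongue, oesophagus and trachea, had its KO values close together. NOD KO mice had 3.95, 4.04 and 3.97, against 4.19, 4.48 and 5.01 in NOD WT mice. In BALB KO mice it had 4.18, 3.93, 3.97 and 3.88, against 5.01, 4.86, 4.75 and 4.40 in BALB WT mice. B6 KO mice had 3.996, 4.12 and 4.06, against 5.31, 4.47 and 4.99 in B6 WT mice. KO and WT were again apart in each background, with KO values near the lowest 5% of all values. The differences were -0.76 ± 0.18 in BALB and -0.86 ± 0.20 in B6 (adjusted p = 0.0107 and 0.0101), while NOD gave -0.57 ± 0.20 (adjusted p = 0.157). For Defb4 in NOD the adjusted p was 0.0444 with the replicate block in all backgrounds and 0.103 with NOD and BALB mice alone paired. Without B6 WT mouse 1 the B6 difference of Defb4 was -0.67 (adjusted p = 0.0683).

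Defb8 departed from its neighbours. It had 6.17, 4.34 and 5.49 in B6 WT mice and between 3.68 and 4.14 in all other 17 mice, KO and WT. B6 KO mice lay below all B6 WT mice (-1.57 ± 0.28, adjusted p = 0.000951), while NOD gave 0.06 ± 0.28 and BALB 0.10 ± 0.24 (adjusted p = 0.969 and 0.882). The B6 KO values of Defb8 (3.78, 3.82 and 3.68) lie around the lowest 5% of all values, so no fold is given. Among WT mice Defb8 was lower than in B6 in both other backgrounds (-1.46 ± 0.28 for NOD and -1.57 ± 0.26 for BALB, adjusted p = 0.00279 and 0.000972). The lowest B6 WT value again belongs to mouse 2, as with Defa22 and Defa21. The test of unequal KO effects on Defb8 between backgrounds gave an adjusted p of 0.0754. That p for Defb8 was 0.0140 with the replicate block in all backgrounds, 0.140 with NOD and BALB mice alone paired, 0.000105 without B6 WT mouse 2 and 0.00674 without the 3 B6 arrays. The averaged call of Defb8 (-0.47 ± 0.15, adjusted p = 0.0366) was lost under 14 of 29 alternatives, with adjusted p up to 0.0729. Defb7, at the end of the run, averaged 3.15 in NOD KO and 3.33 in NOD WT mice, 3.28 in BALB KO and 3.35 in BALB WT mice, and 3.18 in B6 KO and 3.15 in B6 WT mice.

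**Figure D2:**
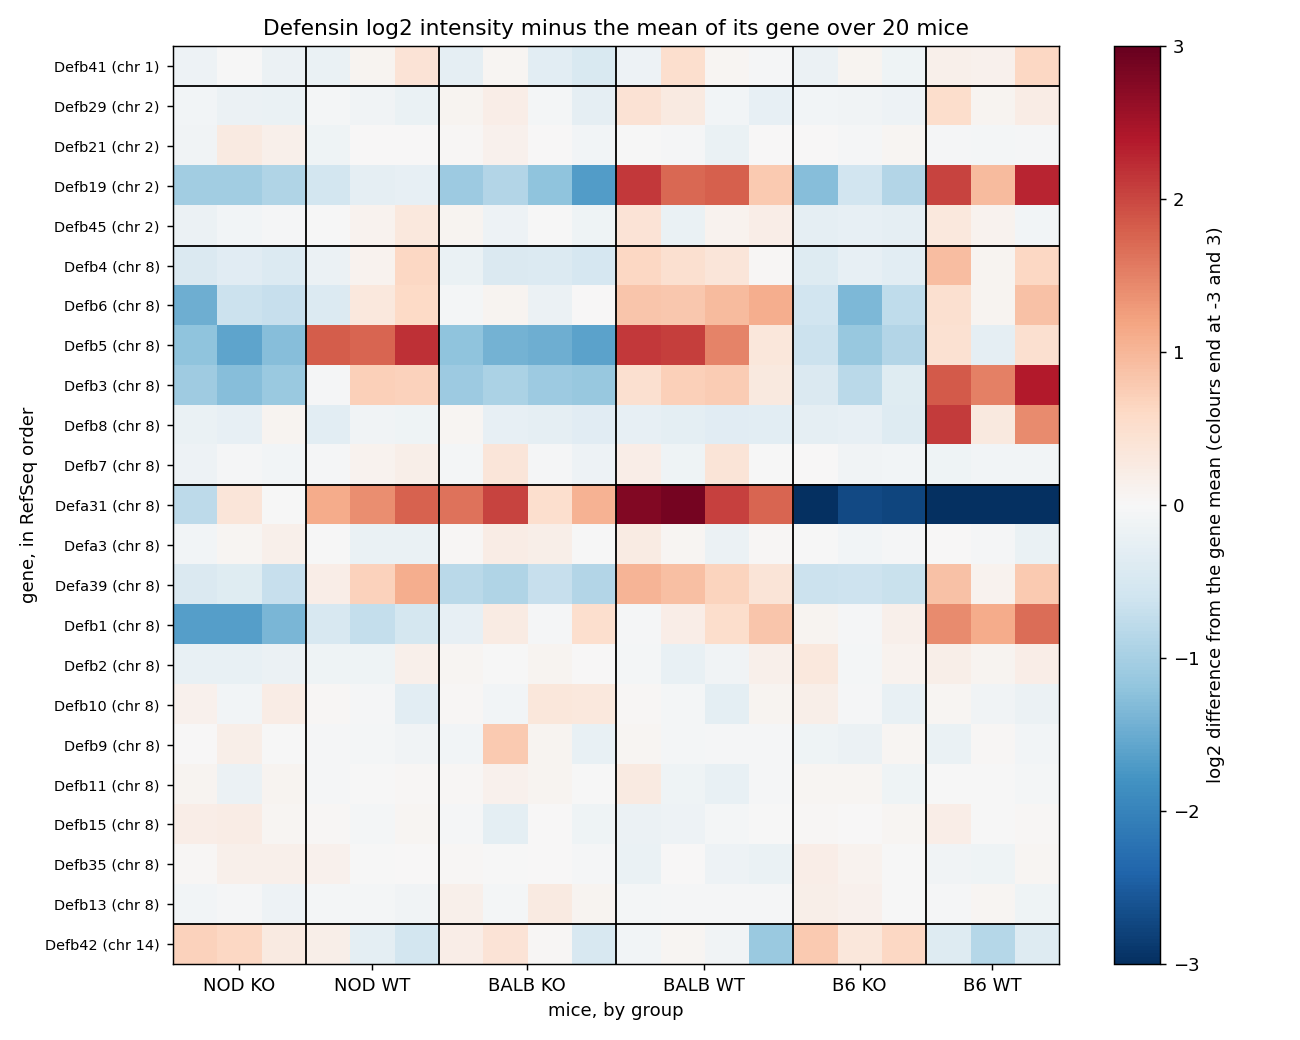
Log2 intensity of each defensin minus its own mean over the 20 mice (colour; red above, blue below), with genes in RefSeq order down the page and mice by group across, KO left of WT. Defb4 to Defb3 are below their mean in most KO mice, Defb8 is above it mainly in B6 WT mice, and Defb2 to Defb13 stay near white.

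Defb1, the constitutive beta defensin of kidney and other epithelia, lies at the alpha defensin end of the distal cluster. NOD KO mice had 6.78, 6.76 and 7.06, against 7.94, 7.70 and 7.89 in NOD WT mice. Values in BALB KO mice were 8.18, 8.68, 8.40 and 8.92, against 8.40, 8.62, 8.96 and 9.27 in BALB WT mice. B6 KO mice had 8.50, 8.40 and 8.57, against 9.84, 9.55 and 10.10 in B6 WT mice. KO and WT separated in NOD and B6 and overlapped in BALB. The KO differences were -0.98 ± 0.21 in NOD (1.97-fold lower, adjusted p = 0.00806), -0.27 ± 0.18 in BALB (adjusted p = 0.470) and -1.34 ± 0.21 in B6 (2.53-fold lower, adjusted p = 0.000287). These 3 effects were not shown to differ (adjusted p = 0.258), although the replicate block gave 0.00509 for Defb1 (0.0380 with NOD and BALB mice alone paired). The other Defb1 probe set had every KO mouse below every WT mouse of its background, with differences of -0.95, -0.38 and -1.13 in NOD, BALB and B6 (adjusted p = 0.000296, 0.0720 and 2.70e-05). WT levels of Defb1 were ordered NOD, BALB, B6 from low to high, each neighbour differing without overlap: NOD minus BALB was -0.96 ± 0.19 and BALB minus B6 -1.02 ± 0.19 (adjusted p = 0.00474 and 0.00333). In KO mice NOD lay below both others (-1.67 ± 0.19 against BALB and -1.62 ± 0.21 against B6, adjusted p = 1.59e-05 and 5.02e-05), and BALB and B6 overlapped.

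Next to Defb1 on the chromosome, the 7 measured genes from Defb2 to Defb13 had no call in any test. Their averaged differences ran from -0.04 to 0.15. Defb2, known from kidney, had 5.84, 5.85 and 5.89 in NOD KO mice, against 5.94, 5.94 and 6.22 in NOD WT mice. It had 6.13, 6.06, 6.16 and 6.09 in BALB KO mice, against 6.02, 5.86, 5.96 and 6.23 in BALB WT mice. Values were 6.40, 6.01 and 6.17 in B6 KO mice, against 6.26, 6.17 and 6.26 in B6 WT mice. The averaged Defb2 difference was -0.04 (95% interval -0.17 to 0.09, adjusted p = 0.696). Altogether 11 members were called in none of the 11 tests (Defb29 in B6 passed with the replicate block at 0.0150, and at 0.0395 with NOD and BALB mice alone paired), with log2 values of 3.08 to 6.86 and group means that spanned 0.08 to 0.43. Defb9, as an example of these, averaged 3.67 in NOD KO and 3.55 in NOD WT mice, 3.76 in BALB KO and 3.60 in BALB WT mice, and 3.54 in B6 KO and 3.53 in B6 WT mice.

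Defb19, a beta defensin known from the testis, lies on chromosome 2. NOD KO mice had 4.40, 4.39 and 4.53, against 4.87, 5.16 and 5.19 in NOD WT mice. BALB KO mice had 4.35, 4.56, 4.22 and 3.76, against 7.55, 7.16, 7.23 and 6.21 in BALB WT mice. B6 KO mice had 4.15, 4.85 and 4.55, against 7.47, 6.38 and 7.72 in B6 WT mice. The KO ranges of the 3 backgrounds overlapped, whereas NOD WT mice lay below all BALB and B6 WT mice. The differences were -2.82 ± 0.28 in BALB (7.04-fold lower, adjusted p = 2.79e-06) and -2.67 ± 0.32 in B6 (6.38-fold lower, adjusted p = 2.31e-05), and NOD gave -0.63 ± 0.32 (adjusted p = 0.432, and 0.0248 in a fit of the NOD mice alone). The lowest BALB KO value, 3.76, lies within the lowest 5% of all values. Over the alternatives the BALB difference ran from -3.09 to -2.09, so its fold is approximate. In the fit of 6 group means, Defb19 alone passed the test of unequal KO effects between backgrounds (adjusted p = 0.0424), which 0.660% of all genes passed and which 6 members met at an unadjusted p under 0.05. With the replicate block 6 members passed (Defb19, Defb5, Defb8, Defa31, Defb1 and Defb42), with NOD and BALB mice alone paired 4 (Defb19, Defb5, Defa31 and Defb1), and with the run of sample codes as a random block 3 (Defb19, Defb5 and Defa31). Shares of all genes were not computed for these blocked fits or for an unadjusted p, so those counts have no rate beside them. The adjusted p of Defb19 ran from 0.00739 to 0.126 with single mice left out. Among WT mice NOD minus BALB was -1.97 ± 0.30 and NOD minus B6 was -2.12 ± 0.32 (adjusted p = 0.000565 and 0.000412).

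Defb45, next to Defb19 among the measured genes, had small differences. Its KO values were 6.49, 6.58 and 6.62 in NOD, against 6.67, 6.78 and 6.99 in NOD WT mice. BALB KO mice had 6.74, 6.52, 6.65 and 6.54, against 7.09, 6.47, 6.77 and 6.88 in BALB WT mice, whereas B6 KO mice had 6.41, 6.42 and 6.40, against 6.98, 6.78 and 6.59 in B6 WT mice. The groups overlapped in BALB alone, and the averaged difference of Defb45 was -0.27 ± 0.08 (adjusted p = 0.0169, and 0.0850 without the 3 B6 arrays). In B6 alone Defb45 passed with the replicate block (adjusted p = 0.0238, and 0.0457 with NOD and BALB mice alone paired). Defb41, an epididymal beta defensin on chromosome 1, had 3.54, 3.69 and 3.52 in NOD KO mice, against 3.51, 3.78 and 4.10 in NOD WT mice. BALB KO mice had 3.43, 3.75, 3.38 and 3.24, against 3.54, 4.20, 3.75 and 3.65 in BALB WT mice, and B6 KO mice had 3.52, 3.79 and 3.57, against 3.84, 3.83 and 4.31 in B6 WT mice. These values lie around the lowest 5% of the scale and overlap in NOD and BALB, and the averaged call of Defb41 (-0.30 ± 0.10, adjusted p = 0.0414) was lost under 16 of 29 alternatives, with adjusted p up to 0.0961 and, without the 3 B6 arrays, 0.0687.

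Defb42, an epididymal beta defensin on chromosome 14, was the member that was higher in KO mice. NOD KO mice had 8.97, 8.90 and 8.56, against 8.45, 7.99 and 7.73 in NOD WT mice. Values were 8.49, 8.70, 8.30 and 7.79 in BALB KO mice, against 8.19, 8.34, 8.17 and 7.16 in BALB WT mice. B6 KO mice had 9.07, 8.61 and 8.90, against 7.88, 7.43 and 7.89 in B6 WT mice. KO lay wholly above WT in NOD and B6 and overlapped in BALB, where mouse 4 was lowest in both genotypes. The averaged rise was 0.75 ± 0.15 (1.68-fold, adjusted p = 0.00187). B6 passed alone (1.13 ± 0.28, adjusted p = 0.0146, but 0.0575 without B6 KO mouse 3 and 0.210 without the 3 B6 arrays). NOD gave 0.75 ± 0.28 and BALB 0.36 ± 0.24 (adjusted p = 0.191 and 0.476), which became 0.000452 and 0.0203 with the replicate block in all backgrounds, and 0.00910 and 0.118 with NOD and BALB mice alone paired. The test of unequal effects on Defb42 gave 0.0269 and 0.259 under these 2 blocks. A probe set shared by Defb42 and 2700070H01Rik had group means within the lowest 5% of all values and differed by 0.10 ± 0.07 on average (adjusted p = 0.302).

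**Figure D3:**
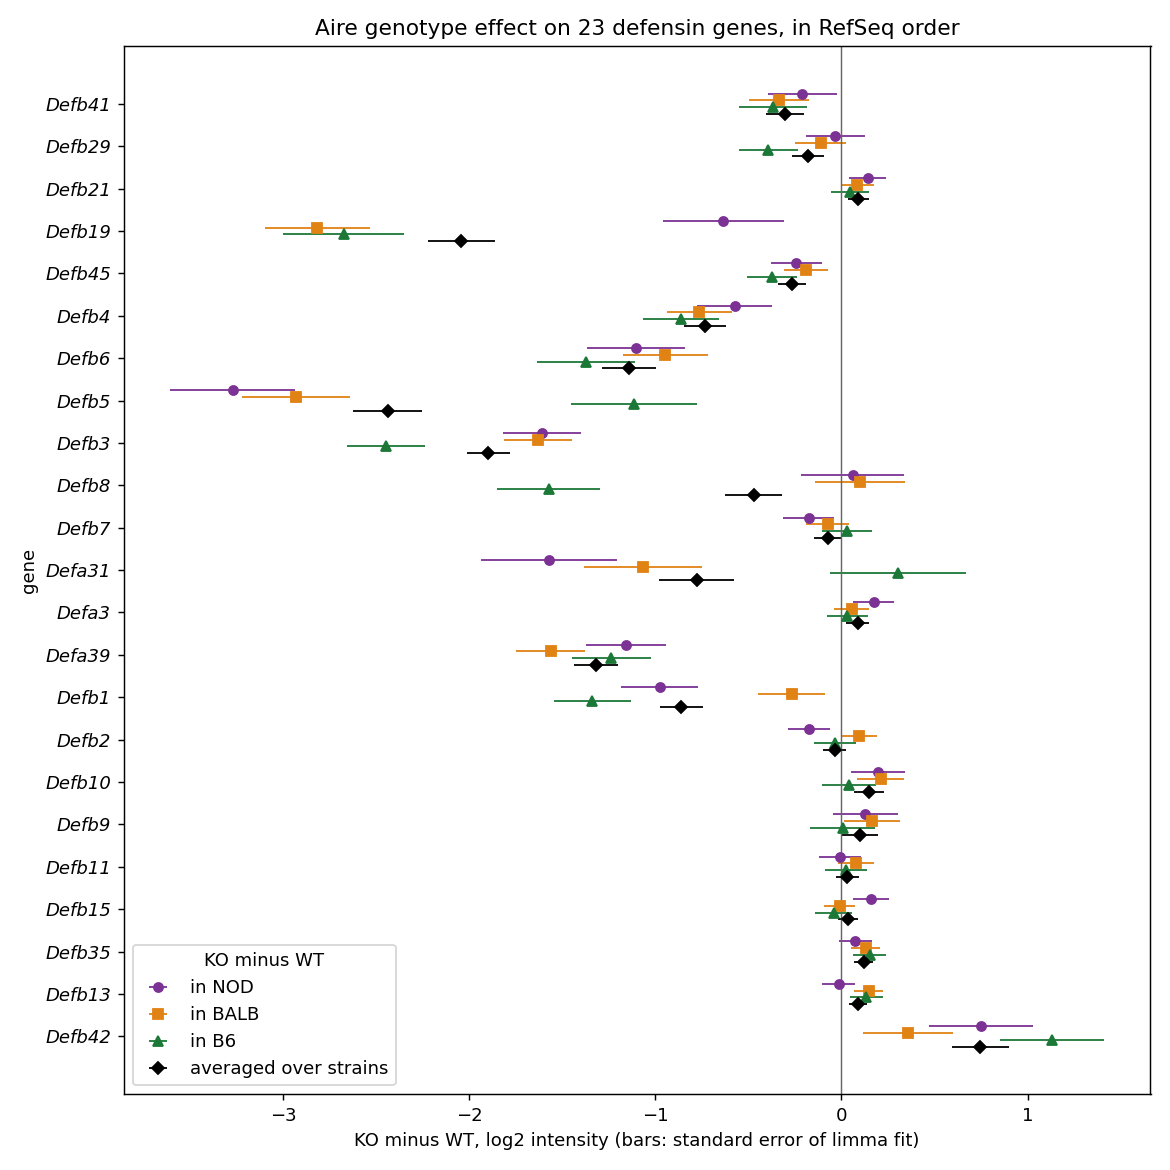
KO minus WT difference in log2 intensity (horizontal axis; bars are standard errors) for all 23 defensins in RefSeq order, for NOD, BALB, B6 and their average. Defb5 reaches -3.27 in NOD, Defb19 separates NOD (-0.63) from BALB and B6, Defb8 is low in B6 only (-1.57), and the 7 genes from Defb2 to Defb13 cluster around 0.

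Counted by background, 6 members were lower in NOD KO mice and 0 higher, where 4.70% of all genes were lower and 1.88% higher. In BALB 6 were lower and 0 higher (7.48% and 2.89% of all genes), and in B6 8 were lower and 1 higher (9.27% and 3.19%). Defb3, Defb5, Defb6 and Defa39 were called in all 3 backgrounds. Between backgrounds in WT mice, NOD minus B6 had 4 members lower and 2 higher (6.30% and 2.40% of all genes), BALB minus B6 3 lower and 2 higher (4.58% and 2.46%), and NOD minus BALB 2 lower and 0 higher (5.25% and 3.03%). In KO mice the counts were 1 lower and 1 higher for NOD minus B6 (7.13% and 4.90%), 0 lower and 2 higher for BALB minus B6 (7.73% and 6.43%), and 3 lower and 0 higher for NOD minus BALB (6.65% and 4.67%). The NOD minus B6 and BALB minus B6 comparisons share the B6 mice.

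**Figure D4:**
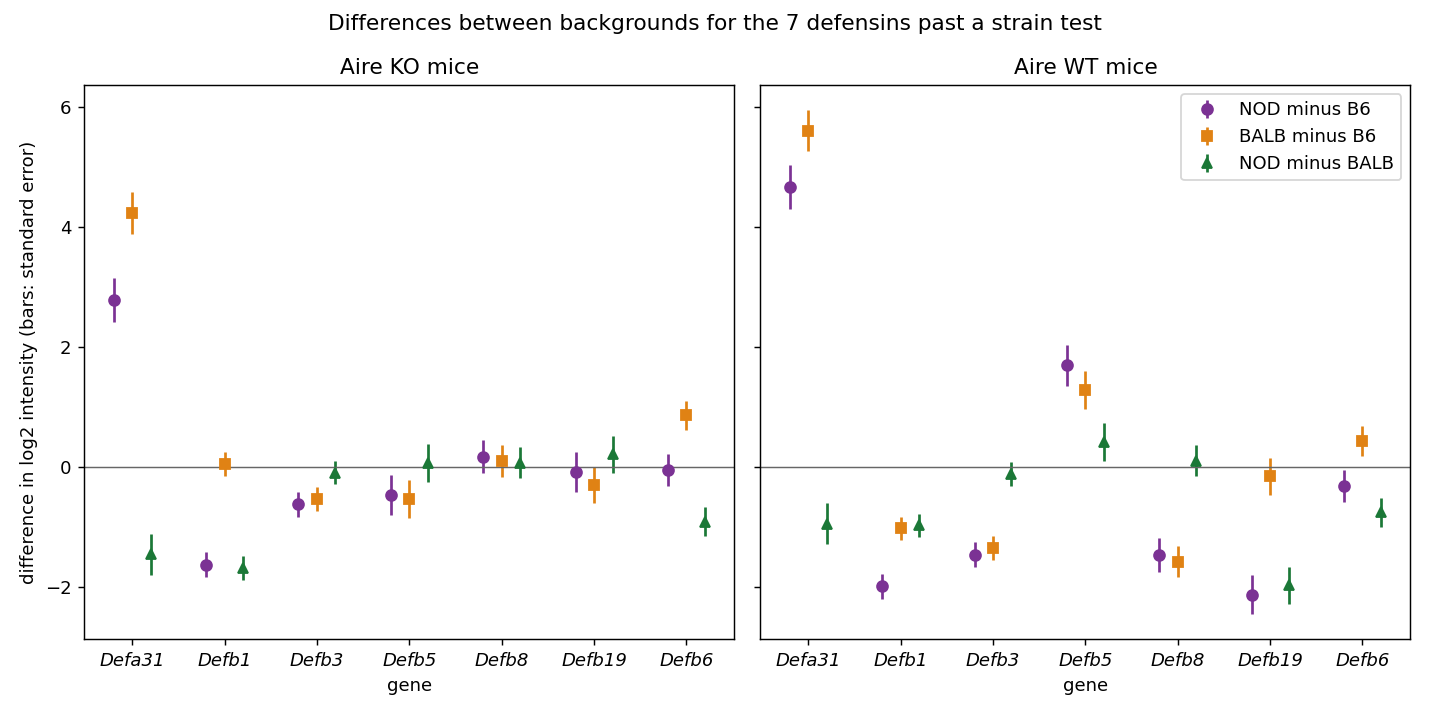
Differences in log2 intensity between backgrounds (vertical axis; bars are standard errors) for the 7 defensins past any such test, in KO mice (left) and WT mice (right). Defa31 stands 2.78 to 5.60 above B6 in NOD and BALB in both panels. For NOD minus B6 all 7 genes, Defa31 included, lie further from 0 in WT mice than in KO mice.

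The labels carry sample codes in 4 runs, with none for B6 WT mouse 1. These runs allow 5 sets of KO and WT mice of 1 background within 1 run. Defb3, Defb4, Defb5, Defb6, Defb19, Defb45, Defa39 and Defb1 were lower in KO mice in 5 of 5 sets, and Defb42 was higher in 5 of 5. Among members called in no test, Defb29 was also lower in 5 of 5 (-0.28 to -0.003). Defb21, likewise not called, was higher in 5 of 5 (0.04 to 0.19). The sets draw on the same mice as the tests, and the share of all genes with such a pattern was not computed. Defa31 was lower in 4 of 5, the exception being B6, and Defb41 in 4 of 5. Defb8 was lower in 1 of 5, the B6 set. Run 2 alone held KO mice of all 3 backgrounds, and there Defa31 was 4.09 higher in BALB and 2.53 higher in NOD than in B6. No run held WT mice of B6 together with those of another background, so for WT mice of B6 run and background cannot be told apart.

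Genes that act with defensins were counted from lists. Of 26 measured Paneth cell and defensin-processing genes 11 were lower in KO mice and 0 higher, with a median of -0.20. The lowest differences were those of Reg3b (-3.87) and Reg3a (-2.17), lectins of the intestinal defence, Ang4 (-2.62), a microbicidal ribonuclease, and Prss2 (-2.14), a trypsinogen. Mmp7, the enzyme that cuts mouse alpha defensin precursors, fell by 0.68 ± 0.15 (adjusted p = 0.00254), whereas the Paneth cell lysozyme Lyz1 had a difference of -0.11 (adjusted p = 0.417). Other epithelial antimicrobial proteins were lower for 18 of 23 and higher for 1, with a median of -1.33. The differences were -2.94 for S100a9, -2.73 for the airway protein Bpifa1, -2.27 for the protease inhibitor Slpi and -2.22 for the cathelicidin Camp, and the hepatic peptide hormone Hamp was higher by 0.90.

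Of 15 measured epididymal secretory genes 6 were lower and 0 higher, with a median of -0.14. They included Lcn8 (-1.69), Cuzd1 (-1.44), Cst12 (-1.35) and Pate4 (-1.29). Among 20 receptors and inducers of beta defensins 4 were lower and 4 higher (median -0.05). The cytokine Ifng was lower (-1.11), as was Ccl20 (-0.73), which shares the receptor Ccr6 with beta defensins, while Ccr6 was higher by 0.66 and Stat3 by 0.60. These counts stand beside the 16.6% of all genes that were lower and 9.70% that were higher.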

How the data were processed

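Trizol RNA of sorted cells from 20 thymi was amplified as antisense RNA, a pair of times, per the labels' protocols, which can favour 3' ends. The authors deposited 1 linear intensity per probe set and array, made with RMA per the submitters' processing notes, with no version or settings given in the sources used here. Groups came from the sample titles. Log2 was taken of the deposited intensities, 64 control probe sets were left out and 45037 probe sets were fitted as 6 group means with limma 3.58.1 in R 4.3.3 (lmFit, eBayes). P-values were Benjamini-Hochberg adjusted over all of them, with a threshold of 0.05, in 11 tests: KO minus WT averaged and per background, strain differences within each genotype, and an F test of unequal KO effects. Rates over all genes use 1 probe set per gene.

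Gene names came from the platform annotation (34945 probe sets with 1 symbol, 932 with several, 9160 not listed), and all 23 defensin symbols equal those of RefSeq. Promoter windows came from RefSeq, GRCm38.p6. Members, lists and alternatives were chosen with earlier results of these data known. Members past any test are given with values per mouse, together with Defb2, the lowest ones by group means, and up to 4 genes per list by size of difference. Mmp7, Lyz1 and the neutrophil markers that did not pass were named after their values were seen.

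Same-numbered KO and WT mice deviated together in NOD (r = 0.67, 0.31 and 0.61) and BALB (0.52, 0.62, 0.46 and 0.66), but in B6 not all did (0.78, 0.72 and -0.13). The numbers were treated as pairs only in the replicate blocks, and the titles give replicate numbers and name no pairs. Same-numbered NOD and BALB mice also share a run of sample codes, and what their shared deviation reflects was not tested. The fit of 6 group means, which gave the main calls and the rates over all genes, leaves pairing out. The replicate block pairs all 3 backgrounds, and a block pairing NOD and BALB mice alone was added after seeing the data. The code was tested on simulated data for the averaged contrast: with 100 of 45037 probe sets changed at each size, 95% were recovered at a log2 change of 1 and 100% at 2, with 4 false calls of 199. Alternatives covered scaling, a pseudocount of 16, dim probe sets, the variance model, blocks, the arrays fitted, other probe sets and leaving out mice.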

Additional observations from a re-analysis of the deposited data

Results flagged for a closer look

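Defb42 in BALB WT mouse 4 had a log2 intensity of 7.16, apart from the 8.17 to 8.34 of the other 3 BALB WT mice. It was the only 1 of 46 groups of 4 mice in which the lowest or highest mouse stood apart in this way, and chance alone gives about 1 in 20. BALB KO mouse 4 was also the lowest of its group at 7.79.

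The KO effect on Defb19 differed between backgrounds (F test in limma, adjusted p = 0.0424), with -0.63 in NOD, -2.82 in BALB and -2.67 in B6. KO mice were below WT mice in all 3 backgrounds, so the backgrounds differ in size and not in direction. For Defb19 the adjusted p was 0.0695 with a pseudocount of 16 and ran from 0.00739 without B6 WT mouse 2 to 0.126 without NOD KO mouse 3, and it passed among the single mice left out only without B6 WT mouse 2 or BALB WT mouse 4 (0.00964).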

How the results depend on the processing

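Of 54 differences of named members, 36 kept their side of the threshold under every alternative run and 18 lost the call under at least 1. The alternatives with other probe sets or with probe sets of several symbols refit the same values. There only Defb1 could change, but they are counted among the alternatives here and for Defb5, Defb8 and Defb41. No called difference changed sign, and Defb2, which was not called, ran from -0.07 to 0.02. Leaving out each mouse in turn gave 10 to 12 members called for the averaged KO minus WT, 4 to 7 in NOD, 6 to 7 in BALB and 7 to 9 in B6. In WT mice it gave 6 for NOD minus B6, 4 to 5 for BALB minus B6 and 2 for NOD minus BALB. In KO mice it gave 2 to 3, 1 to 2 and 1 to 3 in the same order, and 0 to 2 for unequal KO effects. NOD minus BALB in KO mice fell to 1 without NOD KO mouse 1, and BALB minus B6 in KO mice to 1 without B6 KO mouse 2 or 3 or BALB KO mouse 1, 2 or 4.

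With dim probe sets left out, 8 members could be tested, and 7 were called on average, 5 in B6, 3 for BALB minus B6 and 3 for NOD minus B6 in WT mice, 1 for NOD minus BALB in WT mice and 0 for unequal effects. A pseudocount of 16 gave 0 for unequal effects. The replicate block, a paired fit that also treats B6 numbers as pairs, gave 6 for unequal effects, 13 on average, 8 in NOD, 8 in BALB and 11 in B6. With NOD and BALB mice alone paired it gave 4 for unequal effects, 11 on average, 7 in NOD, 7 in BALB and 11 in B6, and the averaged Defb8 call was lost (adjusted p = 0.0615). With the sample-code run as a random block (19 arrays, without B6 WT mouse 1), NOD minus BALB in WT mice gave 4, BALB minus B6 in KO mice 1 and unequal effects 3. Only the 2 groups compared gave 2 for BALB minus B6 in WT mice. Without the 3 B6 arrays, BALB minus B6 in KO mice gave 1 and unequal effects 2. Shares of all genes called were not computed for any of these alternatives or with single mice left out.

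In fits of only the 2 groups compared, Defb8 lost its calls in B6 and against BALB and NOD in WT mice (adjusted p = 0.104, 0.0716 and 0.140), as did Defb4 in B6 (0.0771), Defb6 in NOD (0.115), Defb1 for BALB minus B6 (0.0644), Defb3 for NOD minus B6 (0.0513) and Defb5 for BALB minus B6 (0.202) in WT mice. In the same fits Defb19 in NOD (0.0248) and Defb3 for BALB minus B6 and NOD minus B6 in KO mice (0.0465 and 0.0464) passed, as did Defb6 for NOD minus BALB in WT mice with the sample-code run as a random block (0.0297). The cause was not tested.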
